A study of Rattus norvegicus with 6 samples.

Results

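The genes described here carry glucose into the cell, break it down to pyruvate and lactate, export the lactate, or divert glucose 6-phosphate into the pentose phosphate pathway or glycogen. They were taken as 37 gene symbols, and every probe set annotated with exactly 1 of these symbols was a member, which gave 59 of 31099 probe sets, for 36 of the 14218 genes that the array names in this way. Pyruvate kinase Pkm had no such probe set, and 6 probe sets whose annotation joined a member to another symbol were not used. Expression was measured on Affymetrix rat arrays in smooth muscle cells of the rat aorta, with 3 cultures kept for 24 h under laminar flow in a parallel-plate chamber, at a shear stress of 14 dyn/cm2, and 3 kept static. All 6 cultures were of passage 3 to 5, were expanded with 10% fetal calf serum, and spent 24 h before the experiment with 0.1% bovine serum albumin in its place. Each sheared culture shared a pairing number, 1 to 3, with a static culture. The labels do not state what a pair had in common, so the spread that the p-values rest on is that between these cultures and may be technical. Any other difference between the flow chamber and the static dish goes with the groups.

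Glycolysis converts glucose to pyruvate in the cytosol, and cells without enough oxygen, or that divide fast, reduce much of the pyruvate to lactate. The pentose phosphate pathway branches off at glucose 6-phosphate and yields NADPH and ribose phosphate. Many glycolytic genes are known targets of the hypoxia-inducible factor HIF-1, while several pentose phosphate genes and malic enzyme are known targets of the oxidative stress factor NRF2. Vascular smooth muscle is known to make lactate even with oxygen present.

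The sheared array of pair 1 stood apart. Across the probe sets tested it correlated with the other sheared arrays at 0.980 and 0.981, whereas sheared arrays 2 and 3 correlated at 0.993. Many results below depended on this array. Over all probe sets tested, 11471 of 21729 (52.8%) passed an adjusted p of 0.05, of which 5283 rose (24.3%) and 6188 fell (28.5%). Median centring of the arrays gave 6814 risen and 4720 fallen. Relative to static cells, the median log2 change of all probe sets was -0.067 as deposited, 0.021 after quantile normalization and 0.082 after median centring, so scaling alone can turn the sign of such small changes. All 8 smooth muscle markers listed were above the filter on dim signals; 7 fell, by up to 2.01 on the log2 scale for Lmod1, and Tagln did not pass. Their median log2 change was -0.92, and their summed signals were 7464 to 8022 on sheared and 9898 to 10990 on static arrays. Of the 5 endothelial markers with a probe set, 4 lay below the filter, and their summed signals were 18.9 to 33.1 on sheared and 23.4 to 42.6 on static arrays. Pecam1, Vwf and Kdr, which define endothelium, were at 0.7 to 8.6 on sheared and 1.0 to 8.1 on static arrays. The 6 leukocyte markers summed to 126.0 to 174.5 on sheared and 173.6 to 234.8 on static arrays; Cd14 fell, while Cd68 (0.70) and Coro1a (0.44) rose and Cd3e did not pass. The 6 fibroblast markers summed to 4276 to 7047 on sheared and 5273 to 7596 on static arrays, and had a median log2 change of -1.27, with 4 fallen, Dcn risen and Lum not passing. In bulk RNA, fewer cells of a type and less RNA per cell cannot be told apart. Pair 1 had less of the fibroblast proteoglycan Dcn in both cultures, at 1546.8 sheared and 1246.0 static, against 2744.8 and 2759.1 on sheared and 2047.7 and 2011.6 on static arrays 2 and 3. Lum, Pdgfra and Scara5 were also lowest in pair 1 in both groups. Col14a1 and Twist2 were lowest in pair 1 on static arrays only. On sheared array 1 Col14a1 was the highest, at 645.6 against 485.7 and 593.8, and Twist2 was dim on all sheared arrays (1.4 to 5.6). The part of these differences in the results below was not tested.

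Among the 37 member genes 35 were tested, each by its probe set with the highest mean signal, and 17 rose under shear, 4 fell and 14 did not pass. Those 17 were 48.6% of the members tested, where 27.9% of all 11248 genes tested rose; the 4 were 11.4%, where 30.2% of all genes fell. The members' median log2 change, on the log2(signal + 16) scale, was 0.41, beside -0.05 for all genes. A change of at least 1 on that scale was found for 9 risen members (25.7%, against 7.03% of all genes) and for 1 fallen member (9.72% of all genes). For 14 members all sheared signals lay above all static signals (40.0%, against 30.7% of all genes), for 4 all lay below (11.4%, against 33.9% of all genes), and for 17 the groups overlapped. By probe set, 43 of the 53 that were not Affymetrix controls were tested; 20 rose, 5 fell and 18 did not pass, and 10 lay below the filter. No gene had probe sets called in opposite directions.

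**Figure D1:**
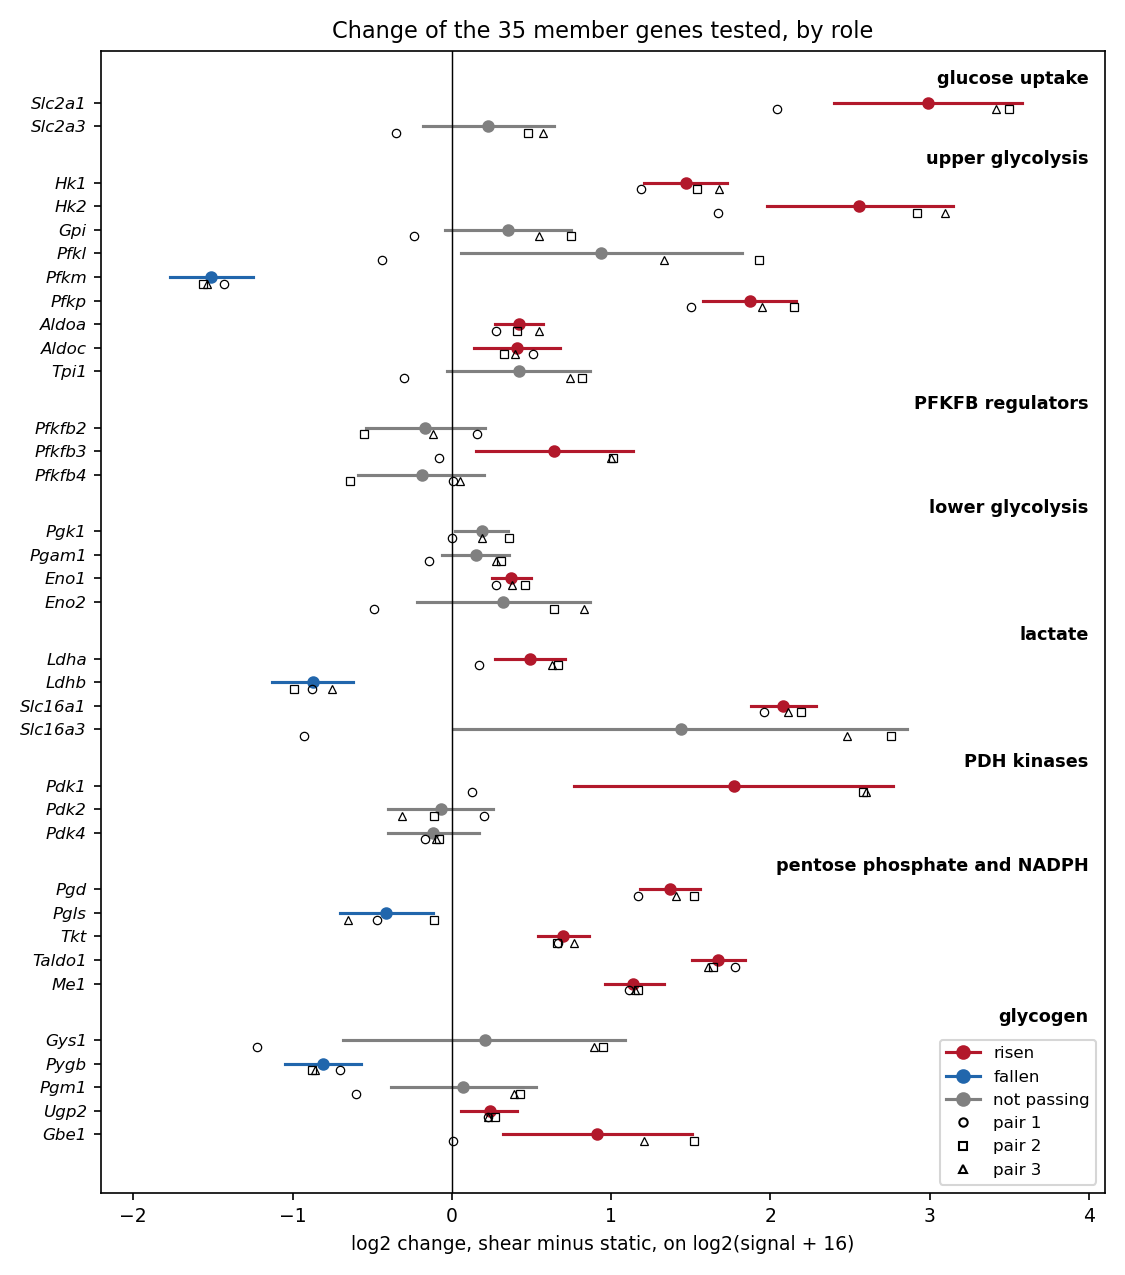
Log2 change of the 35 member genes tested, shear minus static, on the log2(signal + 16) scale, grouped by role down the page. Filled points are the paired estimates with 95% intervals as lines, coloured by whether the gene rose, fell or did not pass, and open symbols are the changes within pairs 1 to 3; pair 1 lies left of both other pairs for 7 of 9 genes of upper and 4 of 4 of lower glycolysis, and for 2 of 5 pentose phosphate and NADPH genes.

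The upstream sequences of 5 members are shown because these genes carry the main contrasts: the glucose carrier Slc2a1, the lactate dehydrogenase Ldha, the kinase Pdk1, and the lactate carriers Slc16a1 and Slc16a3, which behaved differently between pairs. Each is the 250 bases before the RefSeq gene start in build GRCr8, all on the plus strand, at chr5:138002272-138002521, chr1:106507842-106508091, chr3:77113264-77113513, chr2:194812410-194812659 and chr10:106712078-106712327 in the order listed. Capitals mark ACGTG or GCGTG, the core letters bound by HIF-1, on either strand.
Slc2a1: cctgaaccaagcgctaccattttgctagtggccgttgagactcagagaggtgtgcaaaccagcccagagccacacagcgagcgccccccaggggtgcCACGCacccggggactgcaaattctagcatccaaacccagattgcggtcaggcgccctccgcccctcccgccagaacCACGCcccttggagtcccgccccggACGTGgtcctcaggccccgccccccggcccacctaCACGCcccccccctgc
Ldha: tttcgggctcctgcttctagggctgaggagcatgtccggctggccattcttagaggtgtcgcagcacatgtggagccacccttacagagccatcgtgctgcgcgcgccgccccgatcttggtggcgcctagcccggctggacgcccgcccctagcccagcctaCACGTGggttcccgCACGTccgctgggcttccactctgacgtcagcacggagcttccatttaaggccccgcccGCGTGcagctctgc
Pdk1: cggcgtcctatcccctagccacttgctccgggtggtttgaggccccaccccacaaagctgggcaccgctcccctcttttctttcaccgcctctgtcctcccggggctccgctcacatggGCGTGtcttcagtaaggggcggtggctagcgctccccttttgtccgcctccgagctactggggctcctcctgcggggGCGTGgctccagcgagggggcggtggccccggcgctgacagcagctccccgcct
Slc16a1: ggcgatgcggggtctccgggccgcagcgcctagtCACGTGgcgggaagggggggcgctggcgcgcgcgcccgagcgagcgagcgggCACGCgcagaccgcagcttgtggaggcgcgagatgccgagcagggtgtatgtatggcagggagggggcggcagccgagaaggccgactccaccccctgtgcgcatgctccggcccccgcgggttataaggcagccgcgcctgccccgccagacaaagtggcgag
Slc16a3: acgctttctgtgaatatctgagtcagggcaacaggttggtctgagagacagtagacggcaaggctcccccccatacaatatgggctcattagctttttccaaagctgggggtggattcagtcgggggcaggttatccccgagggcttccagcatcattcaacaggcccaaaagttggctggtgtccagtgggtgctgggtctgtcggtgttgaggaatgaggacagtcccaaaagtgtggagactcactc
The letters ACGTG were found on either strand in 15 of 37 upstream windows of 33 member genes (40.5%), against 16.6% of all 33469 windows and 21.7% of 10492 windows of the genes tested here. For GCGTG the share was 43.2% of member windows, 25.9% of all and 43.4% of those of tested genes, so the members were near the level of tested genes. Neither run of letters is in the Slc16a3 window. ACGTG did not follow the direction of change. It was in windows of the risen Slc2a1, Hk1, Aldoa, Aldoc, Pfkfb3, Ldha, Slc16a1 and Gbe1. It was also in those of Pfkm and Pygb, which fell, of Pgam1, Eno2, Pdk2 and Pgm1, which did not pass, and of Gapdh. The risen Hk2, Pfkp, Pdk1, Eno1, Pgd, Tkt, Taldo1, Me1 and Ugp2 lacked it. The palindrome CACGTG, an E-box, holds ACGTG on both strands and occurs in the windows of 4 members, Ldha, Slc16a1, Pfkfb3 and Pdk2, of which Pdk2 did not pass the test for a change. The letters TGACNNNGC, the core of the NRF2 element, were in 2 member windows (5.41%), those of Slc16a1 and Me1, against 10.1% of all windows and 12.3% of those of tested genes. A match of letters is a description of the window, not a site of binding.

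The transcripts of the 2 glucose carriers among the members changed differently, and uptake itself was not measured. Slc2a1 encodes GLUT1, the basal glucose carrier of most cells. Its signal was 747.2, 1773.5 and 1771.7 in sheared cultures 1 to 3, against 169.0, 142.1 and 150.5 in static cultures 1 to 3. The groups did not overlap, and sheared culture 1 was the lowest of the sheared. The means were 1431 ± 592 in sheared and 153.9 ± 13.8 in static cells (SD, n = 3 each), and the log2 change was 2.99 (95% interval 2.40 to 3.58, adjusted p = 5.3e-05). By pair the change was 2.04, 3.50 and 3.42, and no other member reached as much in pair 2 or pair 3. Slc2a3, the high-affinity carrier GLUT3, did not pass on either of its probe sets (0.23 and 0.28 on the log2 scale, adjusted p = 0.3 and 0.28). On its brighter probe set sheared signals were 247.9, 343.5 and 384.8, and static signals 321.5, 241.0 and 254.7, so sheared culture 1 lay among the static cultures. The change of Slc2a1 exceeded that of Slc2a3 by 2.76 ± 0.32 (SD over 3 pairs) on the log2 scale, a difference that was not tested.

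Upper glycolysis had 5 risen, 1 fallen and 3 genes that did not pass out of 9, with a median log2 change of 0.42. Hexokinases phosphorylate glucose and so keep it in the cell. Hk2, the inducible form, had signals of 197.4, 436.5 and 508.9 in sheared and 51.2, 43.8 and 45.4 in static cultures. Hk1, the housekeeping form, had 652.2, 745.1 and 827.7 in sheared and 277.2, 245.3 and 247.5 in static cultures. Neither gene's groups overlapped, and the static cultures were close together. Hk2 rose by 2.56 (95% interval 1.98 to 3.15, adjusted p = 0.00011) and Hk1 by 1.47 (95% interval 1.21 to 1.73, adjusted p = 3.1e-05) on the log2 scale. The array also carries 3 control probe sets along the Hk1 transcript, which were left out of the fit. At the 3′ end, the middle and the 5′ end their means were 228.3, 138.1 and 132.9 in sheared and 85.7, 62.3 and 49.4 in static cells. In a fit that kept these controls, chosen after seeing the data, their log2 changes were 1.26, 0.98 and 1.16 (adjusted p = 5.3e-05, 0.00027 and 0.00045).

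The 3 subunit genes of phosphofructokinase, which makes the committed step of glycolysis, went different ways. Pfkp, the platelet form, had 1056.9, 1370.0 and 1217.6 in sheared and 362.7, 295.5 and 303.0 in static cultures, a log2 change of 1.87 (95% interval 1.58 to 2.16, adjusted p = 1.7e-05). Pfkm, the muscle form, had 30.9, 32.0 and 29.2 in sheared and 110.6, 125.2 and 115.7 in static cultures, a change of -1.51 (95% interval -1.77 to -1.25, adjusted p = 2.7e-05). Both were separated completely between the groups and changed alike in every pair. A second Pfkm probe set fell by 1.89 (adjusted p = 2.4e-05), with sheared signals of 2.8, 1.3 and 1.0, near the floor. Pfkl, the liver form, had 50.8, 328.7 and 234.7 in sheared and 74.7, 74.2 and 83.6 in static cultures. Sheared culture 1 was thus below every static culture and sheared cultures 2 and 3 far above them, and the change of 0.94 did not pass (adjusted p = 0.07; 1.09 and 0.046 after median centring). Pfkp exceeded Pfkm in log2 change by 2.94, 3.71 and 3.49 in pairs 1 to 3.

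The remaining upper genes had smaller changes over all pairs. Aldolase Aldoa, which splits fructose 1,6-bisphosphate, had 2862.7, 3626.6 and 3512.3 in sheared and 2350.5, 2718.1 and 2388.0 in static cultures. It rose by 0.42 (95% interval 0.27 to 0.57, adjusted p = 0.001), and by 0.27 after quantile normalization, with no overlap between the groups. Aldoc, the brain aldolase, was dim and overlapped between the groups; its rise of 0.41 (adjusted p = 0.018) was lost when the pair block was left out (adjusted p = 0.079), without pair 2 (adjusted p = 0.062) and without pair 3 (adjusted p = 0.094). The phosphoglucose isomerase Gpi did not pass (0.35, adjusted p = 0.12), with changes of -0.24, 0.75 and 0.55 by pair. The triose phosphate isomerase Tpi1 did not pass either (0.42, adjusted p = 0.1), but did after median centring (0.57, adjusted p = 0.05). Tpi1 signals were 1718.0, 3973.2 and 3571.4 in sheared and 2125.5, 2247.4 and 2126.2 in static cultures, again with sheared culture 1 below the static ones.

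The bifunctional PFKFB enzymes set the level of fructose 2,6-bisphosphate, the activator of phosphofructokinase. Pfkfb3, the form with the highest kinase activity, had 68.2, 135.2 and 148.5 in sheared and 73.1, 59.2 and 66.3 in static cultures. The groups overlapped through sheared culture 1, and the log2 change was 0.64 (95% interval 0.15 to 1.14, adjusted p = 0.036). A second, dimmer Pfkfb3 probe set did not pass (-0.03, adjusted p = 0.91), and the mean over both did not either (0.31, adjusted p = 0.22). Pfkfb2 (-0.17) and Pfkfb4 (-0.19) had mean signals under 20 in each group and did not pass. A second Pfkfb4 probe set, below the filter, had 9.6, 10.9 and 9.6 in sheared and 3.0, 2.1 and 2.8 in static cultures. Also below the filter, a Pfkfb2 probe set had 1.1, 1.5 and 1.1 in sheared and 6.9, 6.2 and 6.4 in static cultures. A Pfkfb3 probe set there had 2.0, 3.6 and 3.3 in sheared and 4.8, 7.1 and 4.8 in static cultures. Other Pfkfb2 probe sets below the filter overlapped between the groups.

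Lower glycolysis changed little over all pairs. Of 4 genes tested, Eno1 rose and 3 did not pass, with a median log2 change of 0.26. Enolase Eno1, which makes phosphoenolpyruvate, had 3285.0, 4339.9 and 3945.2 in sheared and 2701.5, 3152.2 and 3026.3 in static cultures. It rose by 0.37 (95% interval 0.25 to 0.50, adjusted p = 0.00079), or by 0.19 after quantile normalization. Pgk1, the phosphoglycerate kinase, had 3085.5, 4262.5 and 3843.4 in sheared and 3078.9, 3309.3 and 3358.3 in static cultures. Its change on this probe set was 0.19 (adjusted p = 0.059), with 0.34 after median centring (adjusted p = 0.012) and 0.01 after quantile normalization (adjusted p = 0.92), while a second probe set rose by 0.49 (adjusted p = 0.0081). The mutase Pgam1 (0.15, adjusted p = 0.2) and the neuronal enolase Eno2 (0.32, adjusted p = 0.28) did not pass. By pair Pgam1 changed by -0.14, 0.31 and 0.28, and Eno2 by -0.49, 0.64 and 0.83. Pgam1 was at 0.30 and passed after median centring (adjusted p = 0.044) but was at -0.02 after quantile normalization (adjusted p = 0.85). Gapdh, often used as a loading control, was measured here only by 3 control probe sets. At its 3′ end signals were 4098.0, 5181.4 and 4648.3 in sheared and 3728.1, 4437.2 and 4121.5 in static cultures. With the controls kept in the fit its log2 changes were 0.18 to 0.19 (adjusted p = 0.013), but 0.02 to 0.03 after quantile normalization (adjusted p = 0.63 to 0.73) and 0.33 to 0.34 after median centring.

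Of the 4 lactate genes 2 rose, 1 fell and 1 did not pass. Ldha, the muscle-type subunit that favours lactate formation, had 2912.5, 4613.5 and 4156.7 in sheared and 2580.0, 2885.7 and 2679.3 in static cultures. Ldhb, the heart-type subunit that favours lactate oxidation, had 77.1, 85.5 and 82.1 in sheared and 155.5, 185.4 and 148.9 in static cultures. The groups did not overlap for either gene. Ldha rose by 0.49 (95% interval 0.27 to 0.71, adjusted p = 0.0032) and Ldhb fell by 0.87 on the log2 scale (95% interval -1.13 to -0.62, adjusted p = 0.00037). The change of Ldha exceeded that of Ldhb in every pair, by 1.37 ± 0.30 (SD over 3 pairs), which was not tested.

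Slc16a1 encodes MCT1, a proton-coupled carrier that moves lactate either way, and Slc16a3 encodes MCT4, the carrier of lactate export in glycolytic cells. Slc16a1 had 1018.2, 1017.2 and 1057.6 in sheared and 250.2, 210.9 and 233.3 in static cultures, a rise of 2.08 (95% interval 1.88 to 2.29, adjusted p = 3.1e-06). Slc16a3 had 60.8, 903.2 and 800.4 in sheared and 130.4, 119.5 and 130.3 in static cultures. Slc16a1 was alike in all sheared cultures, whereas Slc16a3 in sheared culture 1 was below every static culture and in sheared cultures 2 and 3 above them. Over all pairs the change of Slc16a3 was 1.44 and did not pass (95% interval 0.01 to 2.86, adjusted p = 0.084); by pair it was -0.93, 2.76 and 2.48. Slc16a1 minus Slc16a3 in log2 change was 2.89, -0.58 and -0.37 in pairs 1 to 3.

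**Figure D2:**
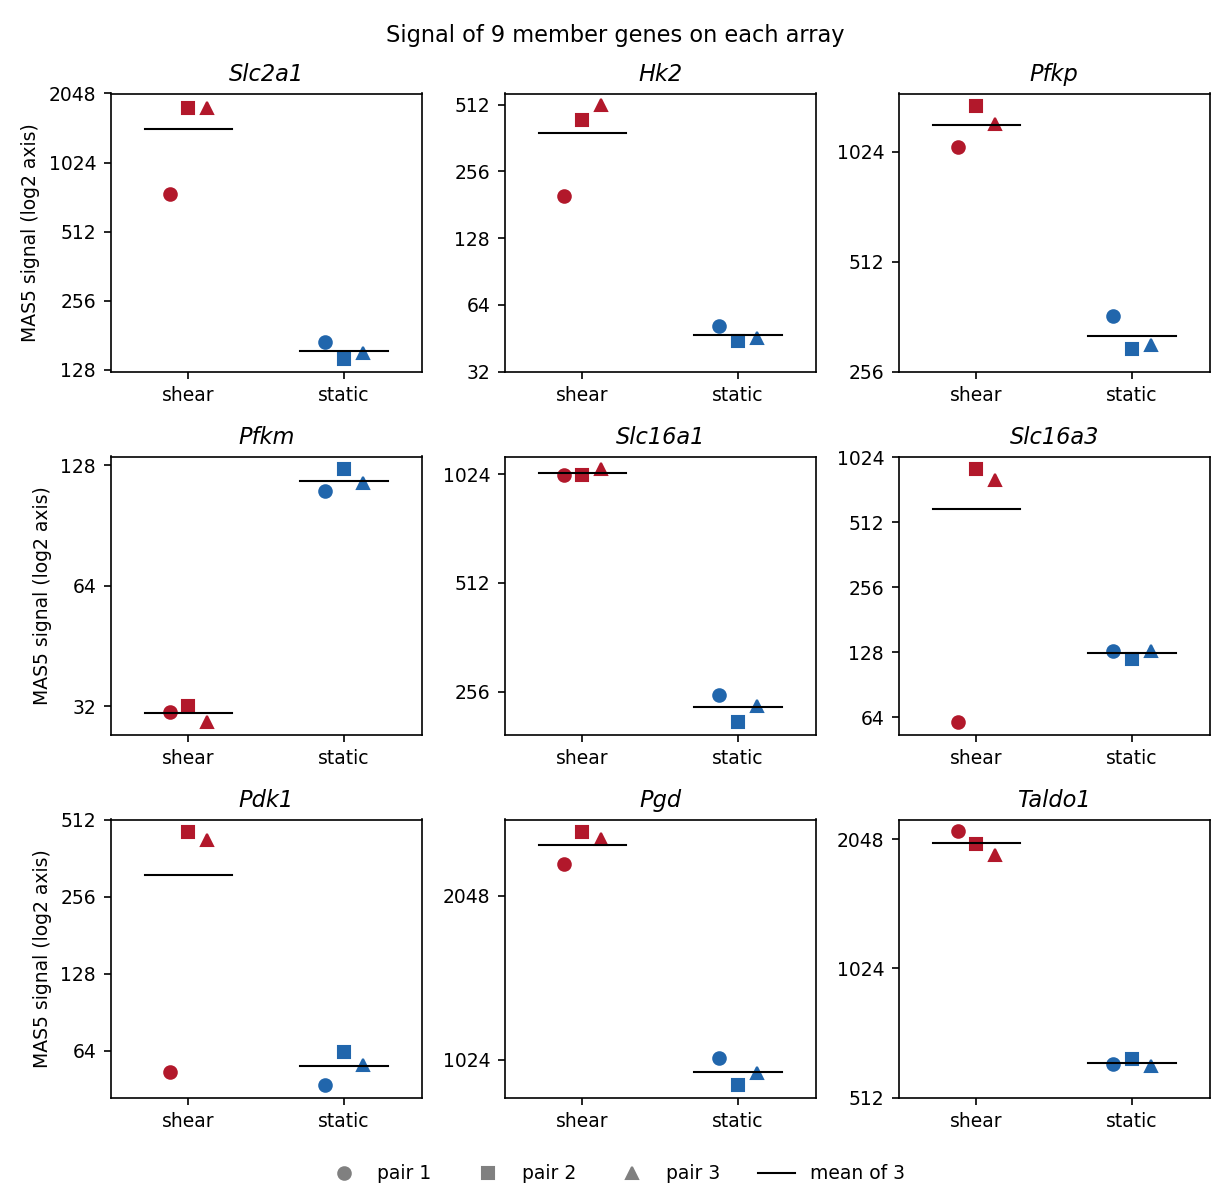
MAS5 signal of 9 member genes on each array (log2 axis, which differs between panels), with sheared cultures on the left and static cultures on the right of each panel. Symbols mark the pairing number and bars the mean of 3; Slc16a1, Pgd, Taldo1 and Pfkm are alike in the 3 sheared cultures, whereas Slc16a3 and Pdk1 in sheared culture 1 lie at 60.8 and 53.0, far below sheared cultures 2 and 3.

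Pyruvate dehydrogenase kinases phosphorylate the enzyme complex that feeds pyruvate to the mitochondria and so switch it off. Pdk1, the form induced by HIF-1, had 53.0, 457.6 and 424.5 in sheared and 47.0, 63.4 and 56.5 in static cultures. Sheared culture 1 lay within the static range and the other sheared cultures well above it. Pdk1 rose by 1.77 over all pairs (95% interval 0.77 to 2.77, adjusted p = 0.0098). A second Pdk1 probe set, with signals of 9.2, 37.3 and 44.6 in sheared and 35.4, 40.9 and 41.1 in static cultures, did not pass (-0.35, adjusted p = 0.21), nor did the mean over both (0.71, adjusted p = 0.11). Pdk2 (-0.07) and Pdk4 (-0.12), the form known from fasted muscle, did not pass, and both had low signals.

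All 5 members of the pentose phosphate and NADPH group passed, 4 risen and 1 fallen, with a median log2 change of 1.14. Pgd, the 6-phosphogluconate dehydrogenase that yields NADPH, had 2338.2, 2678.9 and 2603.8 in sheared and 1030.4, 920.7 and 970.3 in static cultures. Taldo1, the transaldolase of the non-oxidative arm, had 2137.7, 1996.4 and 1885.4 in sheared and 613.1, 630.1 and 607.0 in static cultures. Me1, the cytosolic malic enzyme, also a source of NADPH, had 910.2, 837.9 and 861.6 in sheared and 413.2, 363.3 and 378.6 in static cultures. These genes were separated completely, and sheared culture 1 did not stand apart as it did for Slc16a3 and Pdk1. The log2 changes were 1.37 for Pgd (95% interval 1.18 to 1.56, adjusted p = 1e-05), 1.67 for Taldo1 (95% interval 1.51 to 1.84, adjusted p = 3.1e-06) and 1.14 for Me1 (95% interval 0.96 to 1.33, adjusted p = 2e-05). A second Me1 probe set rose by 0.71. Transketolase Tkt, the other main enzyme of the non-oxidative arm, averaged 1385 ± 25.4 in sheared and 847.2 ± 50.4 in static cells (SD, n = 3 each), a rise of 0.70 (adjusted p = 0.00011). The lactonase Pgls fell, by 0.41 on the log2 scale (95% interval -0.70 to -0.12, adjusted p = 0.026), but not after median centring (-0.26, adjusted p = 0.13) or without pair 3 (-0.29, adjusted p = 0.21).

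Of 5 glycogen genes 2 rose, 1 fell and 2 did not pass. The brain-type phosphorylase Pygb, which breaks glycogen down, had 129.5, 113.9 and 115.5 in sheared and 219.8, 222.7 and 223.1 in static cultures, and fell by 0.81 (95% interval -1.05 to -0.57, adjusted p = 0.00041). The branching enzyme Gbe1 had 155.0, 410.5 and 347.0 in sheared and 154.3, 132.6 and 140.5 in static cultures. Its change of 0.91 passed (adjusted p = 0.018), although sheared culture 1 was barely above the highest static culture. Ugp2, which makes UDP-glucose, had 726.2, 807.8 and 756.5 in sheared and 618.5, 669.5 and 643.8 in static cultures, a rise of 0.24 (adjusted p = 0.029) that did not pass after quantile normalization (0.16, adjusted p = 0.094) or without pair 2 or pair 3 (adjusted p = 0.2 and 0.18). Glycogen synthase Gys1 had 29.9, 199.1 and 191.0 in sheared and 90.9, 95.1 and 95.7 in static cultures, so that pair 1 and the other pairs went opposite ways and the change over all pairs, 0.21, did not pass (adjusted p = 0.67). The phosphoglucomutase Pgm1 did not pass on its brighter probe set (0.07, adjusted p = 0.78), where the change by pair was -0.60, 0.43 and 0.39, while the other rose (0.58, adjusted p = 0.046).

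The roles differed in how far pair 1 followed the others. The median log2 change in pairs 1, 2 and 3 was 0.84, 1.99 and 2.00 for the 2 uptake genes, 0.28, 0.82 and 0.74 for upper glycolysis, and -0.07, 0.41 and 0.33 for lower glycolysis. It was -0.35, 1.43 and 1.37 for the lactate genes and -0.60, 0.43 and 0.39 for the glycogen genes. Pair 1 did not lie apart in this way for the pentose phosphate and NADPH genes, at 1.11, 1.17 and 1.15. The lactate medians lay between unlike genes. Of these, only Slc16a3 turned sign (-0.93, 2.76 and 2.48), and Ldha rose less in pair 1 (0.17, 0.67 and 0.63). Slc16a1 (1.96, 2.19 and 2.11) and Ldhb (-0.88, -0.99 and -0.75) changed alike in every pair. The glycogen medians were the values of Pgm1, which did not pass on its brighter probe set. The medians were 0.01, -0.55 and 0.05 for the PFKFB genes and 0.13, -0.08 and -0.10 for the pyruvate dehydrogenase kinases. Each of these 2 groups holds 1 gene that rose and 2 that did not pass. Their medians in pairs 2 and 3 were values of genes that did not pass. In the genes that rose, pair 1 did lie apart, with -0.08, 1.01 and 1.00 for Pfkfb3 and 0.13, 2.58 and 2.60 for Pdk1. Over all member genes the medians were 0.01, 0.66 and 0.63, and over all genes tested -0.00, -0.07 and -0.06. The change in pair 1 lay below both other pairs for 25 of 35 members (71.4%), against 34.7% of all genes, and was opposite in sign to both for 12 members (34.3%), against 12.3% of all genes. The members were not tested as a list, and what set sheared culture 1 apart was not tested.

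Without pair 1, 27 of 35 members rose (77.1%, against 30.8% of all genes) and the same number as before, 4, fell (11.4%, against 35.1%). All 17 members that rose over the 3 pairs also rose without pair 1, and 10 that had not passed rose: Slc2a3, Gpi, Pfkl, Tpi1, Pgk1, Pgam1, Eno2, Slc16a3, Gys1 and Pgm1. The changes without pair 1 were 2.62 for Slc16a3, 1.63 for Pfkl, 0.92 for Gys1, 0.78 for Tpi1 and 0.73 for Eno2. With 2 pairs left that fit had only 1 residual degree of freedom, so its calls lean on the variance shared between probe sets. Without pair 2 or pair 3, 13 members rose, where 21.3% and 20.8% of all genes did, so calls were lost among all genes too.

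**Figure D3:**
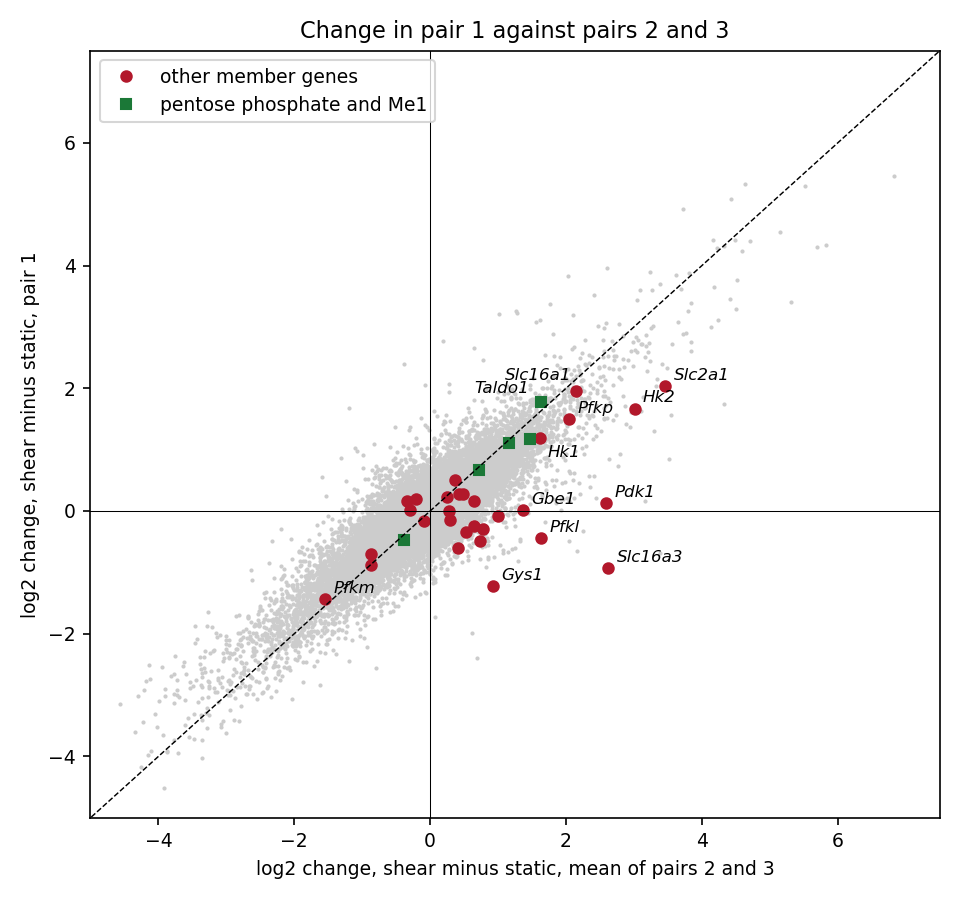
Log2 change (shear minus static) in pair 1 on the vertical axis against the mean of pairs 2 and 3 on the horizontal axis, on the log2(signal + 16) scale, with equality as a dashed line. Grey points are all 21729 probe sets tested; the pentose phosphate genes and Me1 (green squares) lie near the line, and Slc16a3, Pdk1, Pfkl, Gys1 and Gbe1 lie well below it.

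Other genes of glucose metabolism and its regulation, 96 in a separate list, were called about as often as all genes. Of 70 tested, 21 rose (27.9% of all genes did), 21 fell (30.2% of all genes did) and 28 did not pass, with a median log2 change of -0.12. After median centring 23 rose and 15 fell. Of 5 other genes of the glucose carrier family tested, Slc2a6 (-0.39), Slc2a8 (-0.70) and Slc2a13 (-0.71) fell and 2 did not pass. Gfpt2, which directs fructose 6-phosphate into hexosamine synthesis, had 2362.6, 3555.5 and 3441.4 in sheared and 211.0, 217.2 and 241.4 in static cultures, a rise of 3.69 (adjusted p = 1.2e-06). Aldose reductase Akr1b1 rose by 1.58 (adjusted p = 7.6e-06), and the kinase Gsk3b, which phosphorylates glycogen synthase, by 1.77 (adjusted p = 7.1e-06). Sources of NADPH other than the pentose phosphate pathway and Me1 went down or did not pass: the mitochondrial isocitrate dehydrogenase Idh2 fell by 2.90 (adjusted p = 1.5e-06), with 154.9, 139.6 and 127.4 in sheared and 1141.4, 1172.6 and 1131.9 in static cultures. The NAD kinase Nadk fell by 1.80 (adjusted p = 1.3e-05), the phosphoribosyl pyrophosphate synthetase Prps2 fell by 1.57 (adjusted p = 3.1e-05) and the muscle enolase Eno3 fell by 2.47 (adjusted p = 7e-05). Among genes of the pyruvate dehydrogenase complex, its regulators and the mitochondrial pyruvate carrier, 3 of 10 rose and 3 fell. The phosphatase Pdp1, which reverses the kinases, rose by 1.29 (adjusted p = 3.2e-05). Of the complex subunits, Pdhx (1.21, adjusted p = 0.00011) and Dld (0.60, adjusted p = 0.00047) rose. Pdha1 fell by 0.87 (adjusted p = 4.8e-05), and Pdhb did not pass. The kinase Pdk3 (-0.59, adjusted p = 0.0066) and the carrier subunit Mpc1 (-0.36, adjusted p = 0.016) also fell.

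Among 13 regulators tested 6 rose (27.9% of all genes did), 2 fell (30.2% of all genes did) and 5 did not pass. The 2 that fell were Txnip (-0.59, adjusted p = 0.018) and Prkaa1 (-0.33, adjusted p = 0.03). Prkaa2 rose (0.80, adjusted p = 0.0054), at dim signals of 20.9, 24.7 and 16.2 in sheared and 12.6, 2.5 and 1.2 in static cultures. Arnt (0.09) and Epas1 (-0.04) were among those that did not pass. Hif1a, the oxygen-regulated subunit of HIF-1, had 1572.1, 1803.2 and 1725.0 in sheared and 797.6, 745.9 and 750.6 in static cultures, a rise of 1.13 (95% interval 0.95 to 1.32, adjusted p = 2.1e-05) changing by 0.96, 1.26 and 1.18 in the single pairs. Sheared culture 1 had the lowest of the sheared Hif1a signals and pair 1 the smallest change. Any link of Hif1a to the differences of pair 1 was not tested. Egln1, the prolyl hydroxylase that marks HIF-1 for decay and is itself a known HIF-1 target, the liver-type phosphorylase Pygl and the regulators Vhl, Myc and Nfe2l2 were picked out after their values were seen. Egln1 changed by 0.12, 1.91 and 1.78 in pairs 1 to 3 (1.27 over all, adjusted p = 0.0097), and Pygl by -0.32, 2.38 and 2.13 (1.40, adjusted p = 0.033). Nfe2l2, which encodes NRF2, rose by 0.67 (adjusted p = 0.0002), and its change was 0.81, 0.65 and 0.55 by pair. Vhl, part of the ligase that degrades HIF-1 subunits, rose by 1.06 (adjusted p = 7.5e-05) and the growth regulator Myc by 0.86 (adjusted p = 9.4e-05).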

How the data were processed

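The deposited intensity values came from MAS5, per the submitters' processing notes, which name no version; no genome build is stated for them either. They were linear, with 1 per probe set and array, and the mean over the middle of each array, with 2% trimmed at either end, was 100.0. Detection calls were not used here, so dim signals could not be told from background, and the number of arrays limits the precision. Genes were named from the platform annotation for probe sets with 1 symbol; 20764 of 20832 matched a gene identifier of the RefSeq table of GRCr8, and 0 symbols changed. Upstream sequences are RefSeq's, in GRCr8.

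From these values log2(signal + 16) was computed, since 3 to 10 values per array were 0; the change of dim genes is understated by it. Affymetrix controls (57) and probe sets among the dimmest 30% by mean (limit 4.50 on the log2 scale) were left out. The groups were compared by limma 3.58.1 under R 4.3.3 (lmFit, then eBayes with a trend on intensity), with the pairing number as a block, since the series design calls the experiment paired. Tests were two-sided, with Benjamini-Hochberg adjustment over all 21729 probe sets and a threshold of 0.05. Partners of pairs 1 to 3 deviated from their groups' means with correlations of 0.071, 0.065 and 0.063. The highest correlations of sheared arrays 1 to 3 with a static array of another pair were -0.029, 0.018 and -0.024. All of these were weak, and deviations within a group sum to 0, so they say little about what a pair shared. The fit was tested on simulated data.

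The members, lists and alternatives were chosen with earlier results of these data known. Per-array values are given for members past the threshold with a log2 change of at least 1, for the brightest member of each role, and for further members picked after their values were seen. From the wider list, the 10 genes with the smallest adjusted p and the same sign in all pairs are named, with others picked after their values were seen. Alternatives were no block, quantile normalization, median centring, no filter or a 50% filter, pseudocounts of 1 and 64, no trend, the mean over probe sets and each pair left out. Keeping the Gapdh and Hk1 controls in the fit, also with either scaling, was added after seeing the data. Python 3.11.15 with matplotlib 3.10.9 drew the figures.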

Additional observations from a re-analysis of the deposited data

How the results depend on the processing

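The counts of risen members depended most on the pairs: with each pair left out in turn, risen member genes ranged from 13 to 27 (17 with all pairs) and risen member probe sets from 15 to 31 (20 with all pairs), the highest without pair 1. Without the replicate block 16 member genes rose and 4 fell, the 1 lost call being Aldoc. Under the other alternatives 15 to 21 member genes rose, 3 or 4 fell, and the members' median log2 change was 0.28 (quantile normalization) to 0.56 (median centring). Of 452 gene values under all alternatives, 407 kept their direction and side of the threshold, 18 lost the call, 15 gained it and 12 turned sign; 15 of the 35 genes kept both throughout. The turned values belonged to genes that did not pass with all pairs, of which Gys1, Pgm1 and Pgam1 rose without pair 1. With pairs left out, Gys1 ranged from -0.16 to 0.92, Pgm1 from -0.10 to 0.41, Pdk2 from -0.21 to 0.05, Pfkfb2 from -0.33 to 0.02 and Pfkfb4 from -0.31 to 0.03. Under the scalings Pdk2 was at 0.08 (median centring) and 0.07 (quantile normalization), Pdk4 at 0.03 under both, and Pgam1 at -0.02 (quantile normalization). Gbe1 and Pfkfb3 did not pass without the filter (adjusted p = 0.054 and 0.088), where more probe sets were tested, nor without pair 2 (0.076 and 0.16) or pair 3 (0.061 and 0.16). Small changes of bright genes such as Gapdh and Pgam1 cannot be told from a difference in scaling.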

Other observations

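The control transcripts of 2 member genes gave a view along the RNA. The 3′ signal of Gapdh over its 5′ signal, as log2, was 0.16, 0.15 and 0.16 on sheared arrays 1 to 3 and 0.16, 0.17 and 0.17 on static arrays 1 to 3. For Hk1 it was 1.14, 0.56 and 0.74 on sheared and 0.81, 0.87 and 0.70 on static arrays, with sheared array 1 the highest of the 6.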
